A study of Mus musculus with 12 samples.

Results

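Cytochrome P450 families 1 to 3 comprised 58 genes of the 37141 in the deposited table, taken as every symbol made of Cyp, a family number from 1 to 3, a subfamily letter and a gene number, with pseudogenes left out. Of these, 37 passed the filter on low counts and were tested, 14 had some counts but too few, and 7 had 0 counts in all 12 libraries. The study measured RNA of mouse hepatocytes, 500000 sorted cells per library, to learn whether the transcriptional co-activators YAP and TAZ matter for regeneration after toxic liver injury. There were 4 groups of 3 libraries, all from mice with floxed Yap and Taz alleles. The Yap/Taz KO + CCl4 group received 5e11 genome copies of an AAV8 vector that makes Cre recombinase from the hepatocyte promoter TBG and, 3 weeks later, carbon tetrachloride (CCl4, 1 ml per kg in corn oil, into the peritoneum), with collection 48 hours after it. The Yap/Taz KO group received the vector alone and was collected 3 weeks later, the ctrl + CCl4 group received CCl4 alone, and the ctrl group is listed with no treatment. No empty vector and no corn oil control is given in the labels, so knockout and vector, and CCl4 and its solvent, cannot be told apart. The sources used here give no age, no sex and no number of animals, so the p-values speak of the variation among these libraries, part of which may be technical.

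P450 enzymes hold a haem group and sit mostly in the endoplasmic reticulum, where they oxidise fat-soluble compounds with electrons handed over by P450 reductase and cytochrome b5. Families 1 to 3 handle drugs, plant and environmental toxins, steroids and fatty acids, and in the liver many of them are made most strongly by hepatocytes around the central vein. CYP2E1 is the enzyme best known for turning CCl4 into the reactive radical that kills these cells, so the cells richest in it are hit first.

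Libraries held between 1617761 and 3028951 counts, and the 58 genes took between 0.367% and 1.73% of them. Levels are given as CPM, a gene's count relative to all counts of its library, scaled by TMM factors. They were not divided by length, because a transcript gives about 1 tag, at its 3' end. Yap1 lay between 9.65 and 22.2 CPM in the 6 knockout libraries, against 40.3 and 71.8 CPM as the lowest and highest of the 6 control libraries. The sources used here do not name the exons removed, so 3' tags need not follow the deletion. Hepatocyte markers dominated every library: 10 of them summed to 85202 to 103437 CPM in Yap/Taz KO + CCl4, 138224 to 172152 CPM in Yap/Taz KO, 58471 to 76649.8 CPM in ctrl + CCl4 and 124925 to 167291 CPM in ctrl.

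Acute injury was accompanied by lower RNA of most tested P450 genes of these families in both genotypes. In knockout hepatocytes 24 of the 37 tested genes fell and 1, Cyp2c55, rose after CCl4, where 8.35% of all 10780 tested genes fell and 9.42% rose (edgeR quasi-likelihood test, Benjamini-Hochberg adjusted p under 0.05). In control hepatocytes 28 fell and 0 rose, where 12% of all tested genes fell and 10.5% rose. Taking both directions, 17.8% of all genes passed in knockouts and 22.5% in controls. At an unadjusted p under 0.05, 27 of the 37 passed in knockouts (30.6% of all genes) and 31 in controls (33.6%). DESeq2 called 25 of the 37 in knockouts (21.2% of all genes) and 28 in controls (25.5%), with 0 higher in controls (12.7%). Those 28 were not all the same as with edgeR, since DESeq2 called Cyp2a4 and did not call Cyp2c39. All 3 injured libraries were below all 3 uninjured ones for 25 of the 37 in knockouts (18.1% of all genes) and for 25 in controls (17.5%), and above them for 1, Cyp2c55, in each (21.2% and 19.1%). The 24 genes that fell in knockouts were all among the 28 that fell in controls (85.7% of the control list), and the other 4 were Cyp2c39, Cyp2c67, Cyp3a11 and Cyp3a25. The median log2 fold change of the 37 genes was -1.58 in knockouts and -2.13 in controls, against 0.03 for all tested genes in each. Of the 37, 29 exceeded the filter level of 3.93 CPM in all 12 libraries, and the other 8 did not. Of these 8, 5 reached it in all 3 libraries of a group only where that group was uninjured. They were Cyp2a22, Cyp2c38, Cyp2c39, Cyp3a16 and Cyp3a44. Their passing of the filter leaned on groups in which they were high, so their falls are weaker evidence.

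Summed over all 58 genes, the level was 5949 ± 1451 CPM in Yap/Taz KO + CCl4, against 15538 ± 2202 CPM in Yap/Taz KO (mean ± SD, n = 3 each). It was 3699 ± 362 CPM in ctrl + CCl4, against 16062 ± 3780.3 CPM in ctrl. The injured libraries did not overlap with the uninjured ones in either genotype, and the mean was 2.61 times lower after injury in knockouts and 4.34 times lower in controls. In bulk samples of this kind fewer cells of a type and less RNA per cell cannot be told apart. Other markers moved with injury as well. For the counts that follow, 8.35% of all tested genes fell and 9.42% rose in knockouts, and 12% fell and 10.5% rose in controls. The 10 hepatocyte markers above fell in 3 cases in knockouts and in 8 in controls. Macrophage markers (12 genes) summed to 2019 to 3050.00 CPM in Yap/Taz KO + CCl4 and 239 to 1151 CPM in Yap/Taz KO, and to 2502 to 4388 CPM in ctrl + CCl4 and 516 to 2795 CPM in ctrl, with 4 genes higher after injury in knockouts and 3 in controls. Monocyte and neutrophil markers (9 genes, 7 tested) summed to 169 to 242 CPM and 7.24 to 23.8 CPM in injured and uninjured knockouts, and to 195 to 335 CPM and 23.7 to 113 CPM in injured and uninjured controls. Of the 7, 7 rose in knockouts and 4 in controls, and the neutrophil marker Ly6g was at 0 in all 12 libraries. Stellate cell markers (11 genes) summed to 1213 to 1428 CPM in Yap/Taz KO + CCl4 and 227 to 599.6 CPM in Yap/Taz KO, and to 758 to 1627 CPM in ctrl + CCl4 and 233 to 879 CPM in ctrl, with 6 and 5 genes higher after injury in knockouts and controls. Cholangiocyte markers (8 genes, 2 tested, 1 of them, Spp1, higher after injury in both genotypes) summed to 92.3 to 221 CPM in Yap/Taz KO + CCl4 and 38.4 to 70.7 CPM in Yap/Taz KO, and to 381 to 459.7 CPM in ctrl + CCl4 and 41.2 to 69.9 CPM in ctrl. Krt19 and Epcam, which define bile duct cells, averaged under 3 CPM in each group, and of 10 sinusoidal endothelial markers 0 passed the test in either genotype. The part of these cells in the P450 results was not tested.

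**Figure D1:**
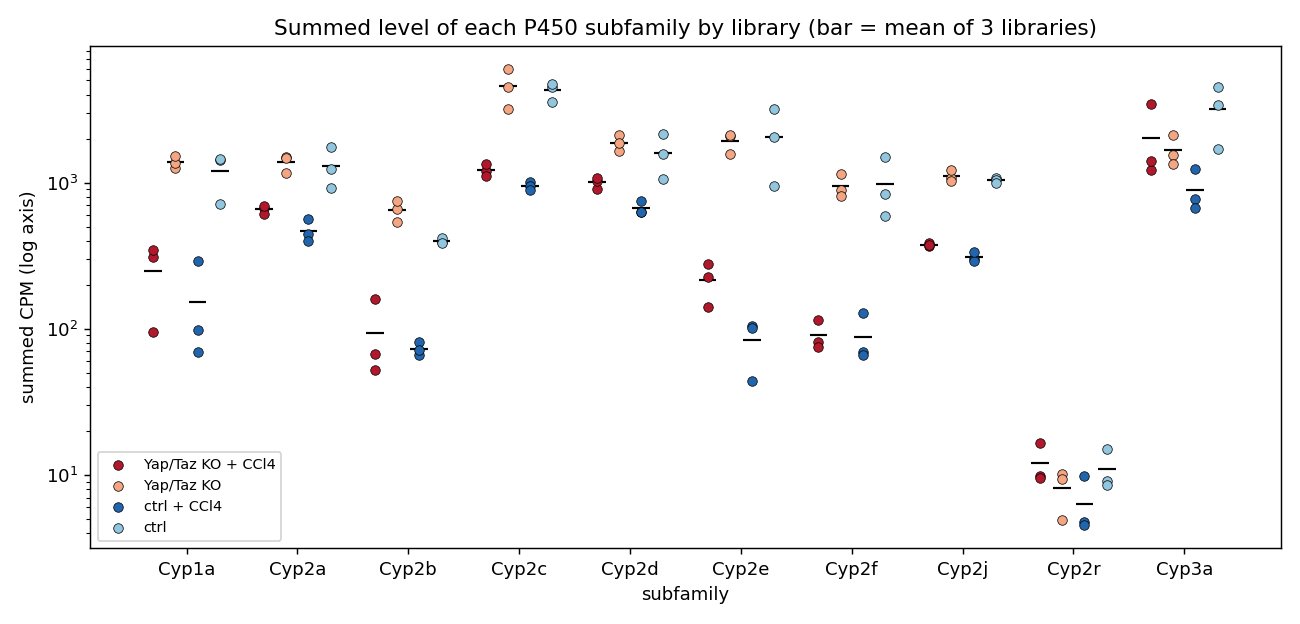
Summed CPM (log axis) of the 10 subfamilies that hold a tested gene, by library; points are libraries, bars are means of 3. Injured libraries lie below uninjured ones of the same genotype in Cyp1a, Cyp2a, Cyp2b, Cyp2c, Cyp2d, Cyp2e, Cyp2f and Cyp2j, while Cyp2r overlaps in both genotypes and Cyp3a overlaps in knockouts.

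**Figure D2:**
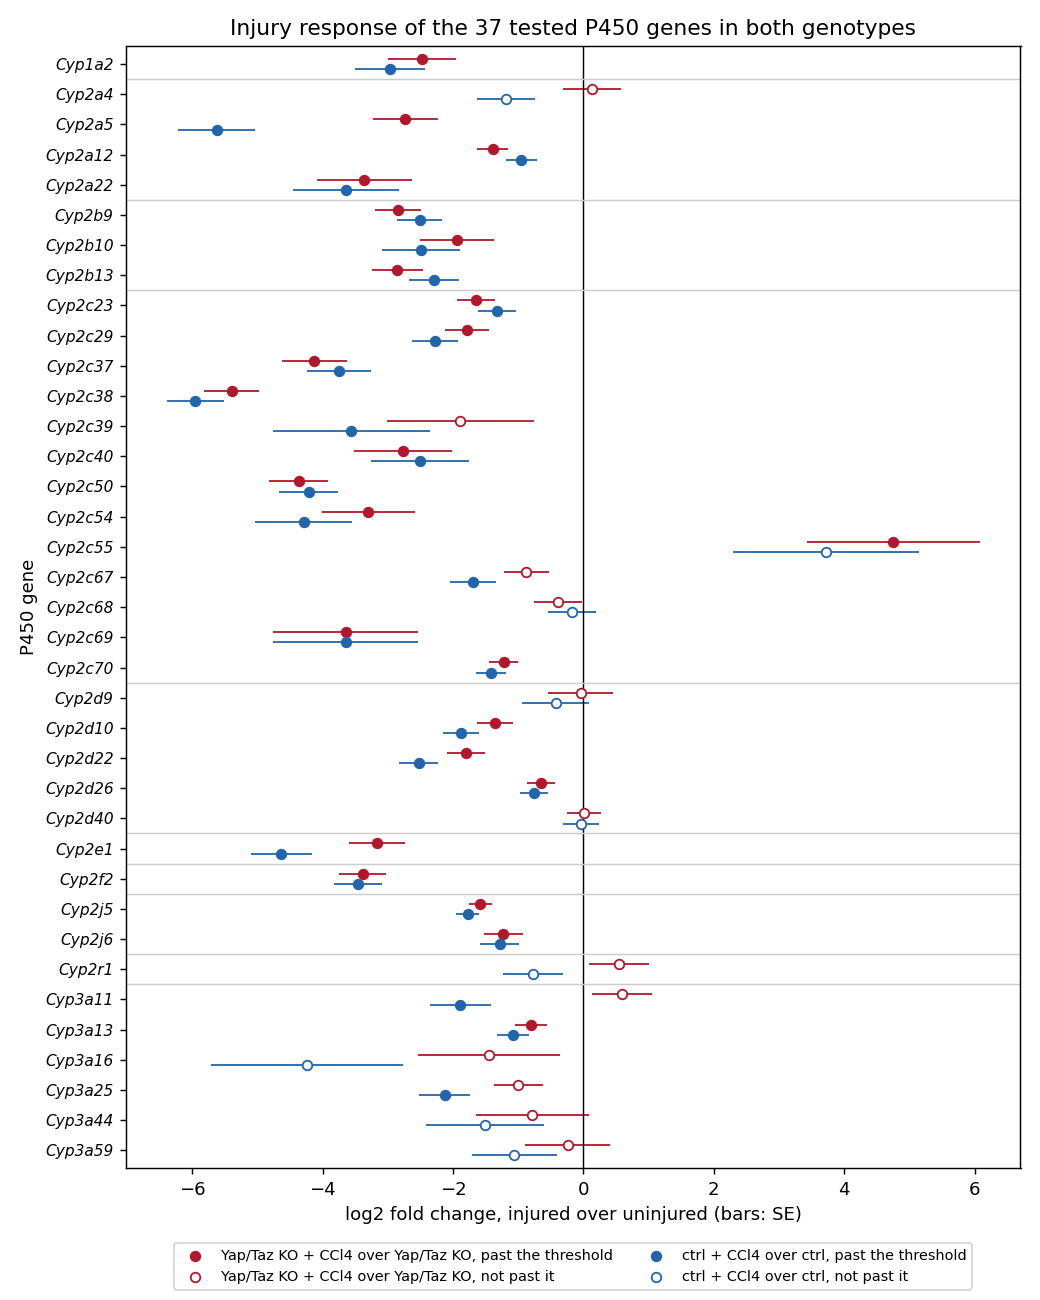
Log2 fold change after CCl4 (injured over uninjured, bars are SE) of the 37 tested genes, in knockouts (red, upper of each pair) and controls (blue); filled points passed the test. Most points lie left of 0, among them those of Cyp2e1 in both genotypes, and the Cyp2c55 points lie furthest to the right.

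Most of these genes lie in clusters of near copies. On GRCm38 the 15 Cyp2c genes lie at chr19:39007019-44029208, the 8 Cyp2d genes at chr15:82370527-82794294, the 8 Cyp2j genes at chr4:96027534-96664154 and the 7 Cyp3a genes at chr5:137892932-146113287. Within these spans Cyp2c23 stands apart from the other Cyp2c genes, at chr19:44005022-44029208. Cyp3a13 stands apart from the other Cyp3a genes, at chr5:137892932-137921619. The Cyp2a, Cyp2b, Cyp2f, Cyp2g, Cyp2s and Cyp2t genes share 1 stretch of chromosome 7, and Cyp2e1 stands apart on the same chromosome at chr7:140763739-140774987. Near copies can share tags. In the last 500 bases of the annotated transcript (GENCODE M21), 74.3% of the 50-base stretches of Cyp2c40 also occurred in another gene, as did 51.2% of those of Cyp2c67 and of Cyp2c68, 44.3% of Cyp2a4 and 12.4% of Cyp2a5. None of the stretches were shared for 13 of the 37 tested genes, among them Cyp1a2, Cyp2b9, Cyp2c29, Cyp2c38, Cyp2f2, Cyp2j5 and Cyp3a13. The sources used here do not say how the authors' counting treated shared reads, so values of genes with shared ends are uncertain.

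The copies also resemble each other at their promoters. RefSeq windows from 250 bases before to 50 bases after a start (GRCm38.p6) were matched for 50 of the 58 genes, in 53 windows. The letters CAAAGTCCA, a core bound by the liver nuclear receptor HNF4A, occurred on either strand in 8 of the 53 windows (15.1%) and in 0.475% of all 32851 windows. The 8 are shown with 20 bases on each side because 4 of them, the first below, belong to neighbouring Cyp2c copies in which the surrounding letters are largely the same; capitals mark the 9 matching letters, 5' to 3' on the gene's strand.
Cyp2c40: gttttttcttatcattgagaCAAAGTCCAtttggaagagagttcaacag
Cyp2c67: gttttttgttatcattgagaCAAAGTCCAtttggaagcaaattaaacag
Cyp2c68: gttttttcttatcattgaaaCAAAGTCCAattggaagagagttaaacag
Cyp2c69: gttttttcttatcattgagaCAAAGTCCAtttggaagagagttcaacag
Cyp2c65: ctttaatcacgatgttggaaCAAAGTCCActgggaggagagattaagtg
Cyp2c70: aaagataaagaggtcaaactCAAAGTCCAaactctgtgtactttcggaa
Cyp3a11: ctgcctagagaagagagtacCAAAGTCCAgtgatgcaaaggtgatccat
Cyp3a16: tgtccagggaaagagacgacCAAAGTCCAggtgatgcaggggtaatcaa
These stretches lie at chr19:39812831-39812879, chr19:39649139-39649187, chr19:39741150-39741198, chr19:39886816-39886864, chr19:39060870-39060918, chr19:40187322-40187370, chr5:145879935-145879983 and chr5:145469794-145469842 in the order shown, all on the minus strand except that of Cyp2c65, which is on the plus strand. The match began between 45 bases (Cyp2c40) and 125 bases (Cyp2c67) before the start. Of the 8 genes 7 were tested, and of these 3 fell after injury in knockouts and 5 in controls, against 24 and 28 of all 37. The copies share descent, so the matches are not independent, and a match of letters is a description of the window only. The same holds for the other motifs searched, on both strands. The core AGGTCA bound by many nuclear receptors occurred in 35.8% of the 53 windows and 16.3% of all windows, the C/EBP motif TTGCNNAA in 28.3% and 10.8%, the D-box TTATGNAA in 9.43% and 3.38%, and the TCF/LEF motif CTTTGAT in 5.66% and 3.73%. The aryl hydrocarbon receptor core GCGTG occurred in 18.9% and 32.4%, the HNF1 core motif in 0% and 0.399%, and CATTCC, the motif of the TEAD factors with which YAP and TAZ act, in 18.9% and 14.7%. On the opposite strand the HNF4 letters end in CTTTG, with which the TCF/LEF motif begins, so these can overlap.

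Cyp2e1, which oxidises ethanol, acetone and CCl4, was among the genes that fell most. It had 226, 277 and 141 CPM in the Yap/Taz KO + CCl4 libraries, against 2097, 2115 and 1568 CPM in Yap/Taz KO. In controls it had 104, 44.2 and 101 CPM after CCl4, against 945, 2049 and 3206 CPM without it. Injured and uninjured libraries did not overlap, and the lowest uninjured ctrl library, replicate 1, was still above every injured one. The log2 fold change was -3.16 ± 0.43 (SE) in knockouts, 8.97-fold lower (edgeR adjusted p = 0.000179), and -4.63 ± 0.46 in controls, 24.8-fold lower (adjusted p = 1.08e-05). In 18.8% of the 50-base stretches at its 3' end Cyp2e1 matched other genes, Fcho2 most often.

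Of the Cyp1 family, whose genes are induced through the aryl hydrocarbon receptor, Cyp1a2 was the 1 tested gene. This caffeine- and oestrogen-oxidising enzyme had 95.02, 309 and 344 CPM in Yap/Taz KO + CCl4, against 1264, 1358 and 1529 CPM in Yap/Taz KO. It had 68.5, 98.5 and 292 CPM in ctrl + CCl4, against 713, 1424 and 1449 CPM in ctrl. All injured libraries were lower than all uninjured ones, with replicate 1 the lowest in both injured groups. The fall was 5.55-fold in knockouts (log2 -2.47 ± 0.52, edgeR adjusted p = 0.00446) and 7.8-fold in controls (log2 -2.96 ± 0.53, adjusted p = 0.00112; log2 -3.83 without ctrl + CCl4 replicate 3). Cyp1a1 had between 0 and 3 counts per library in every group and was not tested. Cyp1b1, in many tissues an enzyme of stromal rather than parenchymal cells, was also under the filter, with 11, 9 and 12 counts in Yap/Taz KO + CCl4, 1, 0 and 3 in Yap/Taz KO, 19, 4 and 6 in ctrl + CCl4 and 1, 0 and 0 in ctrl. Its injured libraries were higher than its uninjured ones in both genotypes, in the same direction as the stellate cell and macrophage markers given above, whose part in this was not tested. Without the low-count filter Cyp1b1 passed in controls (edgeR adjusted p = 0.0323).

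The Cyp2a genes behaved unlike each other. Cyp2a5, a coumarin hydroxylase, had 19.9, 66.7 and 111 CPM in Yap/Taz KO + CCl4, against 391, 597 and 323 CPM in Yap/Taz KO. It had 10.99, 3.66 and 4.19 CPM in ctrl + CCl4, against 253, 361 and 311 CPM in ctrl. It fell 6.65-fold in knockouts (log2 -2.73 ± 0.50, edgeR adjusted p = 0.00155) and 49.5-fold in controls (log2 -5.63 ± 0.59, adjusted p = 1.54e-05), with no overlap in either. Without Yap/Taz KO + CCl4 replicate 3 the log2 fold change in knockouts was -3.33, and without ctrl + CCl4 replicate 1 that in controls was -6.27. Its neighbour Cyp2a4, a steroid 15-alpha-hydroxylase higher in female mouse liver, had 427, 376 and 354 CPM in Yap/Taz KO + CCl4 and 378, 272 and 407 CPM in Yap/Taz KO. It had 345, 125 and 194 CPM in ctrl + CCl4 and 515, 831 and 168 CPM in ctrl. Its groups overlapped in both genotypes and it passed the test in neither (edgeR adjusted p = 0.88 in knockouts and 0.0699 in controls). In controls 5 of 19 alternative settings called it, with adjusted p from 0.000117 to 0.342. The choice of test and single libraries decided it there. DESeq2 on all 12 libraries called it (adjusted p = 0.0381), and leaving out ctrl replicate 3 or ctrl + CCl4 replicate 1 made it pass. The other Cyp2a genes, Cyp2a12 and Cyp2a22, fell in both genotypes. Cyp2a22 was low, and reached the filter level in 2 Yap/Taz KO + CCl4, 3 Yap/Taz KO, 1 ctrl + CCl4 and 2 ctrl libraries.

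The promoters of Cyp2a5 and Cyp2a4 are shown because they are nearly the same while the values of the genes are not: over the 250 bases before the start 245 are identical. Capitals mark the bases in which they differ, 5 in each, of which 1 in each stands at an end because the windows begin 1 base apart.
Cyp2a5: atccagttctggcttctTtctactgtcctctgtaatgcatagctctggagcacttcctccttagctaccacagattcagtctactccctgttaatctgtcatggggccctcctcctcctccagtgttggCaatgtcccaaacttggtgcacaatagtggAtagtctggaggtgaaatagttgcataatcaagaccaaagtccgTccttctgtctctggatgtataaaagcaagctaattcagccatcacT
Cyp2a4: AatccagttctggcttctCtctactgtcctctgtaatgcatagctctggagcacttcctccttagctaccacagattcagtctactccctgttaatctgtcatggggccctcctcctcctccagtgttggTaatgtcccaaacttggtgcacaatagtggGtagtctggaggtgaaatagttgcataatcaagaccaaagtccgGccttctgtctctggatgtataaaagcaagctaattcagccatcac
They lie on the plus strand at chr7:26835089-26835338 and chr7:26306942-26307191 (RefSeq, GRCm38.p6). Since 37.0% of the 3' stretches of Cyp2a4 also occur in Cyp2a5, tags of one may have been counted for the other, and how much was not tested.

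**Figure D3:**
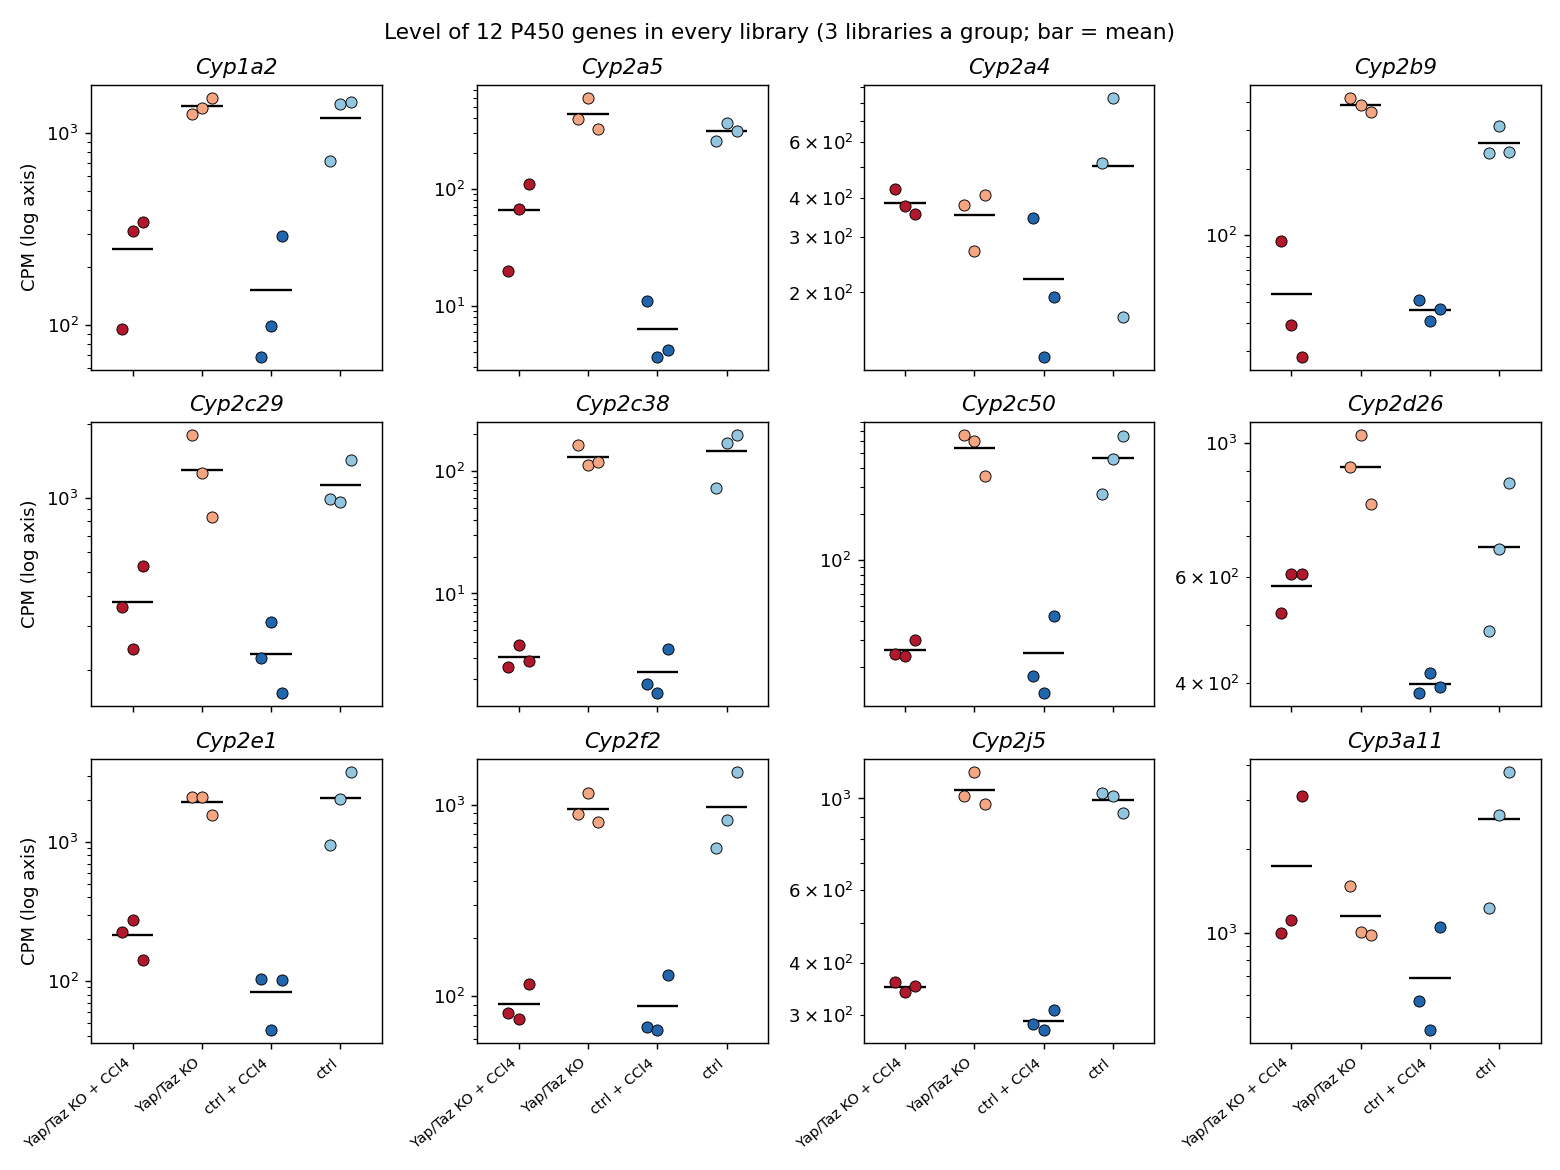
CPM (log axis) of 12 genes in every library, with injured knockout, uninjured knockout, injured control and uninjured control from left to right; points are libraries, bars are means of 3. In 10 of the panels the injured points lie below the uninjured ones of the same genotype, while those of Cyp2a4 overlap in both genotypes and those of Cyp3a11 overlap in knockouts.

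All 3 tested Cyp2b genes fell in both genotypes, where 8.35% of all tested genes fell in knockouts and 12% in controls. The 5 genes of the subfamily summed to 93.7 ± 58.8 CPM in Yap/Taz KO + CCl4, against 651 ± 107 CPM in Yap/Taz KO. The sums were 73.1 ± 7.30 CPM in ctrl + CCl4, against 399.9 ± 15.6 CPM in ctrl (SD, n = 3 each). Cyp2b9, a fatty acid hydroxylase higher in female liver, had 94.4, 39.5 and 28.3 CPM in Yap/Taz KO + CCl4, against 419.7, 389 and 364 CPM in Yap/Taz KO. It had 50.9, 40.9 and 46.4 CPM in ctrl + CCl4, against 237, 313 and 239.5 CPM in ctrl. That was 7.22-fold lower in injured knockouts (log2 -2.85 ± 0.35, edgeR adjusted p = 8.89e-05) and 5.71-fold lower in injured controls (log2 -2.51 ± 0.35, adjusted p = 0.000151), and the knockout value was -3.52 without Yap/Taz KO + CCl4 replicate 1. Cyp2b10, the classical target of the xenobiotic receptor CAR (Nr1i3), had 13.3, 0.948 and 8.48 CPM in Yap/Taz KO + CCl4, against 23.3, 44.4 and 20.02 CPM in Yap/Taz KO, and 4.76, 5.80 and 3.54 CPM in ctrl + CCl4, against 28.4, 21.1 and 30.6 CPM in ctrl. Groups did not overlap, and the fall was 3.84-fold in knockouts (adjusted p = 0.0277 by edgeR) and 5.61-fold in controls (adjusted p = 0.00777). The knockout call was lost without Yap/Taz KO replicate 2 (adjusted p = 0.138) or Yap/Taz KO + CCl4 replicate 3 (0.0663), and with library totals as scaling (0.0599), and the log2 value of -1.94 ± 0.57 became -2.62 without Yap/Taz KO + CCl4 replicate 1. Promoters of Cyp2b9 and Cyp2b13 were 99.3% identical over the 300-base window, and Cyp2b13 fell with Cyp2b9 in both genotypes.

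Cyp2c was the largest subfamily, with 13 of its 15 genes tested. Of these 9 fell and 1 rose after injury in knockouts, where 8.35% of all tested genes fell and 9.42% rose. In controls 11 fell and 0 rose, where 12% of all tested genes fell and 10.5% rose. Its genes oxidise retinoids, steroids, arachidonic acid and many drugs. Cyp2c38 had 2.53, 3.79 and 2.83 CPM in Yap/Taz KO + CCl4, against 162, 112 and 118 CPM in Yap/Taz KO, and 1.83, 1.53 and 3.54 CPM in ctrl + CCl4, against 72.4, 169.6 and 198 CPM in ctrl. It was 42.2-fold lower after injury in knockouts (log2 -5.40 ± 0.42, edgeR adjusted p = 1.67e-06) and 62.1-fold lower in controls (log2 -5.96 ± 0.44, adjusted p = 1.13e-06). It was tested only because of the uninjured groups, in which it was high: it reached the filter level in 3 libraries of each uninjured group and in 1 of each injured group.

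Cyp2c37, Cyp2c50 and Cyp2c54, close copies that make epoxides of arachidonic acid, fell in both genotypes. Cyp2c50 had 24.3, 23.7 and 29.8 CPM in Yap/Taz KO + CCl4, against 660.1, 599 and 353 CPM in Yap/Taz KO, and 17.6, 13.4 and 43.2 CPM in ctrl + CCl4, against 272, 460.5 and 653 CPM in ctrl. Cyp2c37 had 21.5, 18.6 and 20.7 CPM in Yap/Taz KO + CCl4, against 458, 471 and 140.1 CPM in Yap/Taz KO, and 23.4, 5.49 and 17.4 CPM in ctrl + CCl4, against 158, 229 and 237 CPM in ctrl. For Cyp2c54 the libraries held 4.42, 7.90 and 9.42 CPM in Yap/Taz KO + CCl4, against 73.1, 96.5 and 45.99 CPM in Yap/Taz KO, and 3.30, 0.61 and 10.95 CPM in ctrl + CCl4, against 45.2, 45.3 and 207 CPM in ctrl. No injured library of the 3 genes reached an uninjured one of its genotype. Log2 fold changes in knockouts were -4.37 ± 0.45, -4.13 ± 0.50 and -3.30 ± 0.71 for Cyp2c50, Cyp2c37 and Cyp2c54, with edgeR adjusted p of 1.65e-05, 6.73e-05 and 0.00489. In controls they were -4.22 ± 0.45, -3.75 ± 0.49 and -4.29 ± 0.75 in the same order, with adjusted p of 1.65e-05, 8.92e-05 and 0.000881. The size of the control value rested on single libraries: for Cyp2c54 it was -3.18 without ctrl replicate 3, -3.70 without ctrl + CCl4 replicate 2 and -5.65 without ctrl + CCl4 replicate 3, and for Cyp2c50 -4.88 without ctrl + CCl4 replicate 3, with each call kept. Between 27.1% and 30.4% of the 3' stretches of these genes were shared with another gene. How shared reads were counted is not given, so the values of the 3 genes may not be independent of each other.

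Cyp2c29, an abundant gene induced through CAR and PXR, had 361, 242 and 527 CPM in Yap/Taz KO + CCl4, against 1803, 1262 and 834 CPM in Yap/Taz KO. It had 223, 311 and 159.8 CPM in ctrl + CCl4, against 985, 963 and 1418 CPM in ctrl. The groups did not overlap, and the fall of 3.45-fold in knockouts (edgeR adjusted p = 0.00234) and 4.85-fold in controls (adjusted p = 0.000318) passed in both. Cyp2c69, higher in female liver, differed widely between libraries: it had 25.9, 25.9 and 7.54 CPM in Yap/Taz KO + CCl4, against 534, 154 and 58.3 CPM in Yap/Taz KO, and 32.6, 13.1 and 32.2 CPM in ctrl + CCl4, against 872, 87.6 and 13.5 CPM in ctrl. In controls the injured libraries overlapped with ctrl replicate 3. It passed with a log2 fold change of -3.65 ± 1.11 in knockouts (edgeR adjusted p = 0.0347) and -3.65 ± 1.11 in controls (adjusted p = 0.0275), and the calls rested on single libraries. In controls the log2 fold change was -0.99 without ctrl replicate 1 (adjusted p = 0.378), and leaving out any 1 ctrl + CCl4 library lost the call too (0.0783 to 0.110). In knockouts the call was lost without Yap/Taz KO replicate 1 or 2, without any 1 of the Yap/Taz KO + CCl4 libraries (adjusted p up to 0.141 over these 5) and without ctrl + CCl4 replicate 1 or 3 (0.0517 and 0.0507), and the log2 value was -2.43 without Yap/Taz KO replicate 1.

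Cyp2c55, an arachidonic acid hydroxylase best known from the intestine and inducible in liver, was the 1 gene that passed as higher. It had 3.47, 2.21 and 64.1 CPM in Yap/Taz KO + CCl4, against 2.17, 0.483 and 0 CPM in Yap/Taz KO, which are 11, 7 and 204 and 4, 1 and 0 counts. It had 5.86, 13.1 and 9.02 CPM in ctrl + CCl4, against 1.65, 0 and 0 CPM in ctrl. Injured libraries were above uninjured ones in both genotypes, and Yap/Taz KO + CCl4 replicate 3 stood far above the other injured ones. The gene was tested only because of the injured groups, in which it was high. It reached the filter level in 3 ctrl + CCl4 libraries, in 1 of Yap/Taz KO + CCl4 and in 0 of either uninjured group. The log2 fold change in knockouts was 4.75 ± 1.33 (edgeR adjusted p = 0.0226), but 1.72 without that library (adjusted p = 0.370), and the call was also lost without Yap/Taz KO replicate 2 (0.0863) or 3 (0.0847, log2 4.12), while the log2 value was 6.40 without Yap/Taz KO replicate 1. In controls Cyp2c55 did not pass (adjusted p = 0.0755), but it passed in 5 of 19 alternative settings, with adjusted p from 6.70e-06 without the low-count filter to 0.188. A difference between the genotypes in this response was not called (edgeR adjusted p = 0.928).

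Cyp2d genes, relatives of the human debrisoquine hydroxylase, fell in 3 of 5 tested cases in each genotype, where 8.35% and 12% of all tested genes fell in knockouts and controls. Their summed mean was 1.88 times lower after injury in knockouts and 2.38 times lower in controls. Cyp2d26 had 522, 607 and 606 CPM in Yap/Taz KO + CCl4, against 911, 1032 and 793 CPM in Yap/Taz KO, and 384, 415 and 393 CPM in ctrl + CCl4, against 489, 668 and 857 CPM in ctrl. The groups did not overlap, but the folds were only 1.58 in knockouts (log2 -0.66 ± 0.21, edgeR adjusted p = 0.0462) and 1.69 in controls (log2 -0.75 ± 0.21, adjusted p = 0.0199). The knockout call was lost when any 1 library other than ctrl replicates 1 and 3 was left out (adjusted p 0.0518 to 0.163) and with library totals (0.365). The control call was lost without ctrl replicate 3 (0.0985), ctrl + CCl4 replicate 1 (0.0684) or ctrl + CCl4 replicate 3 (0.0610), and with library totals (0.190). Cyp2d9, a steroid 16-alpha-hydroxylase higher in male liver, had 60.6, 54.03 and 102 CPM in Yap/Taz KO + CCl4 and 51.98, 122 and 49.8 CPM in Yap/Taz KO, and 28.9, 79.9 and 33.2 CPM in ctrl + CCl4 and 39.5, 34.2 and 120.1 CPM in ctrl. Its groups overlapped throughout and it passed no test. Cyp2d40 overlapped between injured and uninjured libraries in both genotypes and passed no test either.

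Cyp2f2, a naphthalene-oxidising enzyme found in hepatocytes around the portal vein and in the airways, had 81.1, 75.5 and 116 CPM in Yap/Taz KO + CCl4, against 889, 1148 and 813 CPM in Yap/Taz KO. It had 69.2, 66.2 and 129 CPM in ctrl + CCl4, against 595, 832 and 1486 CPM in ctrl. The groups did not overlap. It was 10.5-fold lower in injured knockouts (log2 -3.39 ± 0.37, edgeR adjusted p = 2.42e-05) and 11-fold lower in injured controls (log2 -3.46 ± 0.37, adjusted p = 1.65e-05). Of 8 genes listed as pericentral (Cyp2e1, Cyp1a2, Cyp2a5, Cyp2c29, Cyp2c37, Cyp2c50, Cyp2c54 and Cyp3a11), 7 fell in knockouts and 8 in controls. Of all 37 tested P450 genes 24 and 28 fell, and of all tested genes 8.35% and 12%. The 8 pericentral genes had a median log2 fold change of -2.95 in knockouts and -3.99 in controls. For all 37 it was -1.58 and -2.13. The periportal Cyp2f2 fell as well, so a fall was not confined to the pericentral genes. Whether the depth of the fall depends on position in the lobule was not tested.

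Cyp2j5, a kidney and liver epoxygenase of arachidonic acid, had the tightest replicates. It had 359.9, 339.6 and 351 CPM in Yap/Taz KO + CCl4, against 1012, 1161 and 972 CPM in Yap/Taz KO, and 285, 275 and 308 CPM in ctrl + CCl4, against 1033, 1013 and 923 CPM in ctrl. It fell 2.99-fold in knockouts (log2 -1.58 ± 0.17, edgeR adjusted p = 3.01e-05) and 3.42-fold in controls (log2 -1.77 ± 0.18, adjusted p = 1.05e-05), and Cyp2j6, the other tested Cyp2j gene, fell too. Cyp2r1, the vitamin D 25-hydroxylase, was low, with 9.79, 9.48 and 16.6 CPM in Yap/Taz KO + CCl4 and 4.87, 10.1 and 9.37 CPM in Yap/Taz KO, and 4.76, 9.76 and 4.51 CPM in ctrl + CCl4 and 9.05, 15.1 and 8.53 CPM in ctrl. Its groups overlapped and it passed no test.

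In the Cyp3a subfamily, the main drug-oxidising P450s of the liver, 1 of 6 tested genes fell in knockouts and 3 fell in controls. Over all tested genes 8.35% and 12% fell. Cyp3a11, the chief target of the pregnane X receptor, had 1001, 1113 and 3101 CPM in Yap/Taz KO + CCl4 and 1468, 1004 and 980.3 CPM in Yap/Taz KO. It had 571, 448 and 1046 CPM in ctrl + CCl4, against 1223, 2642 and 3776 CPM in ctrl. In knockouts the groups overlapped, with replicate 3 of Yap/Taz KO + CCl4 the highest of the 6 libraries, and the test was not passed (edgeR adjusted p = 0.414). In controls the groups did not overlap, and the fall was 3.7-fold (log2 -1.89 ± 0.47, adjusted p = 0.0101), a call lost without ctrl replicate 3 (0.0505) or ctrl + CCl4 replicate 2 (0.0509). A difference between these responses was not called (edgeR adjusted p = 0.533). Cyp3a13, a gene set apart from the cluster, fell in both genotypes: it had 91.5, 105 and 126 CPM in Yap/Taz KO + CCl4, against 220.4, 215 and 127 CPM in Yap/Taz KO, and 89.00, 118 and 73.1 CPM in ctrl + CCl4, against 208, 179 and 207 CPM in ctrl. The log2 fold change was -0.80 ± 0.25 in knockouts (edgeR adjusted p = 0.0382) and -1.08 ± 0.25 in controls (adjusted p = 0.00656). The knockout call was lost with library totals (0.221) and without replicate 1 or 2 of Yap/Taz KO (0.115 and 0.138), replicate 1 or 2 of Yap/Taz KO + CCl4 (0.145 and 0.106) or replicate 1 of ctrl + CCl4 (0.0524).

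The 21 genes that were not tested were at or near the limit of these libraries. Cyp2b19, Cyp2c65, Cyp2c66, Cyp2j11, Cyp2j13, Cyp2j7 and Cyp2w1 had 0 counts in all 12. The other 14 had between 0 and 19 counts per library, the highest being Cyp1b1, given above, and Cyp2g1. Cyp2g1, known from the olfactory mucosa, had 7, 9 and 2 counts in Yap/Taz KO + CCl4, 13, 1 and 3 in Yap/Taz KO, 2, 1 and 7 in ctrl + CCl4 and 7, 1 and 0 in ctrl.

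No gene of these families passed the edgeR test between the genotypes, with or without injury. Neither did any other tested gene, Yap1 included, although its knockout and control libraries did not overlap. A gene that did not pass here may thus still differ. Between Yap/Taz KO and ctrl 0 of the 37 passed (edgeR, as did 0 of all tested genes, 0%), 3 had an unadjusted p under 0.05 (8.11%, against 9.46% of all tested genes), and DESeq2 called 0 of 36, where it called 0.472% of all genes. Every Yap/Taz KO library was above every ctrl library for 3 genes, Cyp2b9, Cyp2b13 and Cyp2d40 (5.81% of all genes), and below for 1, Cyp2c23 (4.92%). Between Yap/Taz KO + CCl4 and ctrl + CCl4 0 passed (0% of all tested genes as well), 8 had an unadjusted p under 0.05 (21.6%, against 5.69%), and DESeq2 called 1, Cyp2a5, where it called 0.295% of all genes. After injury 9 of the 37 were higher in every knockout library than in every control library (24.3%, against 8.5% of all tested genes) and 0 were lower in every one (against 7.81%). The 9, named after their values were seen, were Cyp2a4, Cyp2a5, Cyp2c68, Cyp2d10, Cyp2d22, Cyp2d26, Cyp2d40, Cyp2e1 and Cyp2j5. Marker sums also differed in this comparison, in both directions, and no marker gene passed. Lower on average in injured knockouts than in injured controls were macrophage (2414 ± 556 and 3407 ± 945 CPM), monocyte and neutrophil (198 ± 38.7 and 288 ± 80.4 CPM) and cholangiocyte sums (155 ± 64.3 and 409.9 ± 43.3 CPM). Higher were hepatocyte (92960.1 ± 9417 and 69473 ± 9674 CPM), stellate cell (1322 ± 108 and 1194 ± 434 CPM) and sinusoidal endothelial sums (913 ± 143 and 823 ± 69.1 CPM, SD, n = 3 each). Libraries overlapped in all but the cholangiocyte and hepatocyte sums, and the part of these cells in the P450 values was not tested.

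Cyp2a5 was the gene that DESeq2 called after injury. Its 63, 211 and 352 counts in Yap/Taz KO + CCl4 stood against 30, 12 and 13 counts in ctrl + CCl4, 65.7 ± 45.3 and 6.28 ± 4.09 CPM, with replicate 1 of the knockouts well below the other knockout libraries and still above the highest control. Without injury it had 437 ± 143 CPM in Yap/Taz KO and 308 ± 53.99 CPM in ctrl, with overlap. The edgeR test after injury did not pass (adjusted p = 0.102), DESeq2 gave an adjusted p of 1.07e-07, and over 19 alternative settings the adjusted p ran from 3.76e-24 to 1.00; it passed in 4, among them the fit without Yap/Taz KO + CCl4 replicate 1. The difference between the injury responses of the genotypes had an edgeR adjusted p of 0.533 and a DESeq2 adjusted p of 0.0340. Cyp2e1 had 215 ± 68.8 CPM in Yap/Taz KO + CCl4 and 83.2 ± 33.8 CPM in ctrl + CCl4, without overlap (edgeR adjusted p = 0.759, range over 19 alternatives 1.74e-05 to 1.00, past the threshold only without the low-count filter). For the difference of the injury responses over all 37 genes edgeR called 0 (0% of all genes), 3 had an unadjusted p under 0.05 (8.11%, the same share as over all tested genes, 8.11%), and DESeq2 called Cyp2a5 and 0.111% of all genes. Averaged over both injury states, the knockout effect called 0 of the 37 and 0.0186% of all genes, with 10 at an unadjusted p under 0.05 (27%, against 7.53%) and Cyp2a5 again the 1 gene of the family that DESeq2 called (0.318% of all genes). Depth and 3 libraries a group limit what these tests can find. On simulated counts for ctrl + CCl4 over ctrl, 25% of 2-fold changes and 90.5% of 4-fold changes were recovered. These changes were placed only in genes that were not low. Recovery in the genotype comparisons was not simulated, so these shares do not give what could be found there.

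The spread between libraries of a group was wide for several genes. Xist, made from an inactive X chromosome, was lowest in replicate 3 of Yap/Taz KO + CCl4 (146 counts, where the others had 395 and 290), in replicate 2 of ctrl + CCl4 (14, where the others had 225 and 251) and in replicate 3 of ctrl (44, where the others had 236 and 371), while Yap/Taz KO had 303, 305 and 306, the 306 of replicate 3 being lowest relative to its library. Counts over 4 Y-linked genes were 0 or 1 in every library. Of 7 P450 genes listed as higher in female liver (Cyp2a4, Cyp2b9, Cyp2b13, Cyp2c40, Cyp2c69, Cyp3a16 and Cyp3a44), 7 were lowest within their group in that Yap/Taz KO + CCl4 library, 7 in that ctrl + CCl4 library and 5 in that ctrl library, where 36.6%, 35.8% and 35.9% of all tested genes were lowest. In Yap/Taz KO, whose Xist counts were close, 5 of the 7 were lowest in replicate 3 as well, where 31.8% of all tested genes were. Of all 37 tested P450 genes, 12, 26, 21 and 10 were lowest in the named libraries of Yap/Taz KO + CCl4, Yap/Taz KO, ctrl + CCl4 and ctrl. Cyp3a16 was at 0 in each of these 3 libraries and in ctrl + CCl4 replicate 3. Cyp2c39, not on that list, had 82.1, 58.8 and 0.942 CPM in Yap/Taz KO + CCl4, 267, 10.1 and 247 CPM in Yap/Taz KO, 35.5, 1.83 and 44.1 CPM in ctrl + CCl4 and 128, 483 and 350.4 CPM in ctrl. It was lowest in the same injured libraries, but in ctrl its lowest library was replicate 1, and in Yap/Taz KO it was low in replicate 2. Without the 3 libraries of low Xist, 21 of the 37 fell and 0 rose after injury in knockouts, and 24 fell and 0 rose in controls. Over all genes 725 then fell and 816 rose in knockouts, against 900 and 1016 with all libraries. In controls 695 fell and 562 rose, against 1290 and 1137. Cyp2b10 and Cyp2d26 then lost their calls in both genotypes (edgeR adjusted p = 0.0912 and 0.0622 in knockouts and 0.0690 and 0.160 in controls). In knockouts Cyp2c69 (0.0561) and Cyp2c55 (0.354) lost theirs. In controls Cyp2c39 (0.101), Cyp2c67 (0.0600), Cyp2j6 (0.121) and Cyp3a11 (0.0641) lost theirs, as did Hnf4a (0.244) and Cyb5r3 (0.0602) among the genes described below, while Cyp2a4 (0.0304) and Cyp3a16 (0.0356) gained one. Cyp2c54 kept its call in controls with a log2 fold change of -2.64, against -4.29 ± 0.75 with all libraries. This choice of libraries was made after seeing the data.

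**Figure D4:**
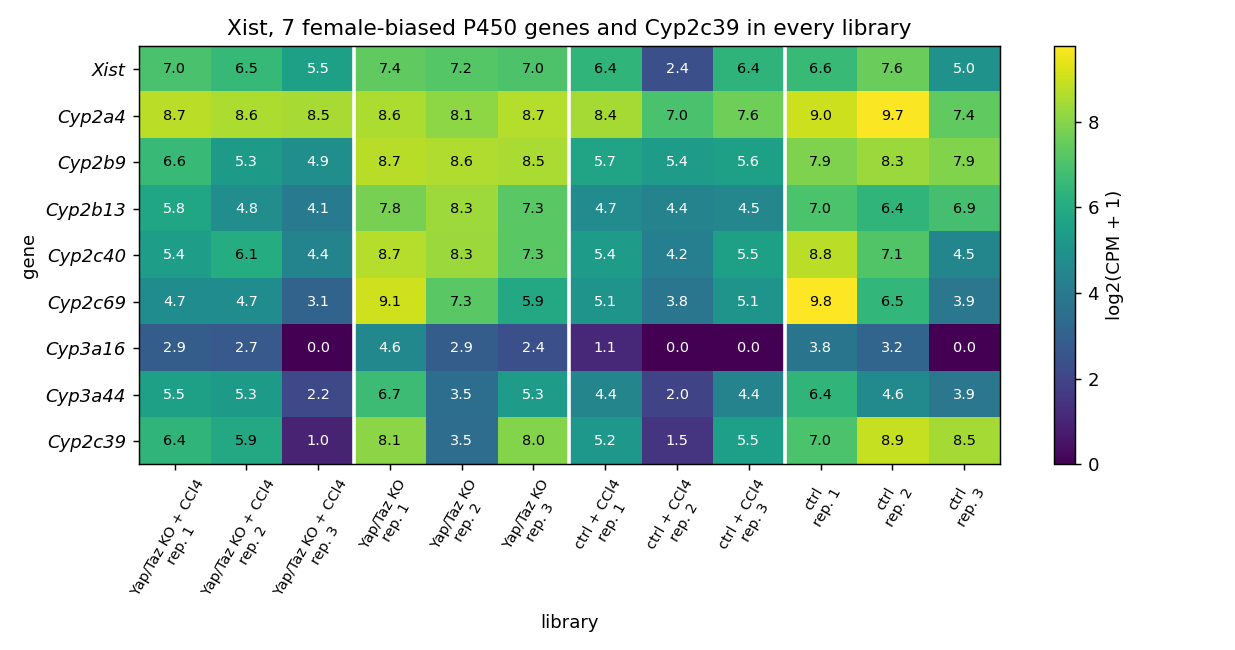
log2(CPM + 1) of Xist, 7 female-biased P450 genes and Cyp2c39 in each of the 12 libraries, with the value written in each cell; groups are parted by white lines. The third Yap/Taz KO + CCl4 library, the second ctrl + CCl4 library and the third ctrl library have the lowest Xist of their groups, and Cyp3a16 is at 0 in each of them.

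Of 9 genes that bring electrons to these enzymes or bind them, 4 fell after injury in knockouts and 5 in controls, with 0 higher in both, where 8.35% and 12% of all tested genes fell. Their median log2 fold change was -0.80 in knockouts and -0.82 in controls, beside -1.58 and -2.13 for the P450 genes. Cyb5b, a cytochrome b5 of the mitochondrial outer membrane, had 228, 271 and 269.7 CPM in Yap/Taz KO + CCl4, against 618, 586 and 499.9 CPM in Yap/Taz KO, and 208, 218 and 214 CPM in ctrl + CCl4, against 424, 429.8 and 407 CPM in ctrl. Its log2 fold change was -1.15 ± 0.18 in knockouts and -0.98 ± 0.18 in controls (edgeR adjusted p = 0.000474 and 0.00116). Cyb5r3, the reductase of cytochrome b5, had a log2 fold change of -1.05 ± 0.22 in knockouts and -0.93 ± 0.22 in controls (edgeR adjusted p = 0.00415 and 0.00715), the control call lost with library totals (0.0784). The ferredoxin Fdx1, which feeds mitochondrial P450s, had log2 fold changes of -0.94 ± 0.22 in knockouts and -1.61 ± 0.23 in controls (edgeR adjusted p = 0.00911 and 0.000159), the knockout call lost with library totals (0.106) and without Yap/Taz KO + CCl4 replicate 1 (0.0507). Pgrmc1, a haem protein that binds P450s, had a log2 fold change of -1.37 ± 0.25 in controls (edgeR adjusted p = 0.00114) and did not pass in knockouts. Por, the P450 reductase itself, had 275, 302 and 561 CPM in Yap/Taz KO + CCl4 and 335, 820.3 and 569 CPM in Yap/Taz KO, and 199.6, 293 and 387 CPM in ctrl + CCl4 and 347, 528 and 617 CPM in ctrl, with overlap in both genotypes and no call. Of 11 tested genes of haem synthesis and breakdown 1 passed as higher in knockouts, where 9.42% of all tested genes did, and 0 passed in controls in either direction, where 12% fell and 10.5% rose. The 1 was Blvra, a biliverdin reductase, with 52.1, 33.5 and 28.3 CPM in Yap/Taz KO + CCl4, against 8.66, 14.5 and 9.79 CPM in Yap/Taz KO (log2 1.78 ± 0.35, edgeR adjusted p = 0.00281).

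Of 26 tested regulators of P450 transcription 10 fell and 0 rose after injury in knockouts, and 7 fell and 1 rose in controls, where 8.35% and 12% of all tested genes fell and 9.42% and 10.5% rose. Cebpa, a factor that keeps hepatocytes differentiated, had 140.5, 149 and 141 CPM in Yap/Taz KO + CCl4, against 256, 497 and 431 CPM in Yap/Taz KO, and 119, 91.2 and 129.5 CPM in ctrl + CCl4, against 241, 329 and 326 CPM in ctrl. Its log2 fold changes were -1.46 ± 0.25 in knockouts and -1.40 ± 0.25 in controls (edgeR adjusted p = 0.00106 and 0.00111). Nr1i2, which encodes the pregnane X receptor, had 43.2, 37.6 and 63.7 CPM in Yap/Taz KO + CCl4, against 81.2, 108 and 106 CPM in Yap/Taz KO, and 24.5, 28.4 and 32.5 CPM in ctrl + CCl4, against 48.9, 67.4 and 62.5 CPM in ctrl. No injured library reached an uninjured one of its genotype, and the log2 fold changes were -1.03 ± 0.24 and -1.06 ± 0.25 in knockouts and controls (edgeR adjusted p = 0.00898 and 0.00689), both lost with library totals (0.0889 and 0.0762), that in knockouts also without Yap/Taz KO + CCl4 replicate 2 (0.0512). The bile acid receptor Nr1h4 had log2 fold changes of -0.99 ± 0.29 in knockouts and -1.49 ± 0.30 in controls (edgeR adjusted p = 0.0307 and 0.00259). The knockout call was lost with library totals (0.147) and without Yap/Taz KO replicate 2 or 3 (0.123 and 0.0762) or Yap/Taz KO + CCl4 replicate 1 or 3 (0.135 and 0.0692). Ppara, the fatty acid receptor, fell in knockouts (log2 -1.44 ± 0.28, edgeR adjusted p = 0.00241) and did not pass in controls. Hnf4a had 227, 215 and 288 CPM in Yap/Taz KO + CCl4 and 378, 517 and 305 CPM in Yap/Taz KO, and 207, 182 and 175 CPM in ctrl + CCl4, against 248, 309 and 398 CPM in ctrl. It passed in controls alone (log2 -0.76 ± 0.24, edgeR adjusted p = 0.0332; 0.0506 in knockouts), a call lost without ctrl replicate 2 (0.0624) or 3 (0.145), without ctrl + CCl4 replicate 1 (0.0601), 2 (0.0995) or 3 (0.111), and with library totals (0.227). Whether it differed between the genotypes is not shown by this. Ahr had 24.7 ± 5.71 CPM in Yap/Taz KO + CCl4, 34.3 ± 13.5 in Yap/Taz KO, 19.99 ± 5.67 in ctrl + CCl4 and 33.4 ± 5.99 in ctrl, and Nr1i3 (CAR) averaged under 10 CPM in each group; neither passed.

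P450 genes outside families 1 to 3 are mostly enzymes of sterols, bile acids and fatty acids. The deposited counts hold 40 of them and 18 were tested, of which 9 fell and 2 rose after injury in knockouts, and 12 fell and 0 rose in controls, beside the same shares of all tested genes. Cyp17a1, a steroid 17-alpha-hydroxylase, had 27.8, 39.8 and 67.8 CPM in Yap/Taz KO + CCl4, against 447, 949.6 and 432 CPM in Yap/Taz KO, and 24.9, 19.2 and 29.96 CPM in ctrl + CCl4, against 422, 291 and 382 CPM in ctrl. Its log2 fold changes were -3.75 ± 0.38 and -3.88 ± 0.39 in knockouts and controls (edgeR adjusted p = 1.63e-05 and 1.16e-05). The sterol 27-hydroxylase Cyp27a1 had log2 fold changes of -2.23 ± 0.26 and -2.83 ± 0.27 (edgeR adjusted p = 5.44e-05 and 8.7e-06). In sum these 40 genes had 988 ± 65.3 CPM in Yap/Taz KO + CCl4, against 3163 ± 471 CPM in Yap/Taz KO, and 731 ± 35.5 CPM in ctrl + CCl4, against 2965 ± 468 CPM in ctrl (SD, n = 3 each), so after injury their mean was 3.20 times lower in knockouts and 4.06 times lower in controls, beside 2.61 and 4.34 times for families 1 to 3.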

How the data were processed

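RNA of 12 libraries of mouse liver hepatocytes (3 per group) was read as tags near the 3' end of transcripts. The authors deposited whole-number counts per gene, made with FastQC, cutadapt and STAR 2.6.1d on mm10/GRCm38, per the submitters' processing notes; the sources used here name neither the counting tool nor molecular identifiers. Samples were grouped by the labels. Total counts of 1617761 to 3028951 per library limit the precision of genes with few tags.

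One model with a mean per group was fitted to all 12 libraries (edgeR 4.0.16, R 4.3.3, TMM scaling, quasi-likelihood tests, Benjamini-Hochberg adjustment over 10780 genes, threshold 0.05). Genes were kept by filterByExpr with a minimum count of 10 and a minimum total of 15. The 6 comparisons were injury in each genotype, knockout in each injury state, the difference of the injury responses and the average knockout effect. Alternatives were other scaling, no filter, DESeq2 1.42.0, the replicate number as a block, 6 libraries only, and each library left out. The fit was tested on simulated data (8 false calls among 10492 genes). Promoters and 3' ends were read with Python 3.11.15, pandas 2.3.3 and Biopython 1.88, and plots drawn with matplotlib 3.10.9.

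Named genes were the highest member of each subfamily, the 5 largest rises and falls without overlap per comparison, 16 genes of known roles, and the 2 strongest calls of each partner list with Por, Nr1i2, Nr1i3, Ahr and Hnf4a. Fold changes are given where the test was passed. The members and lists were chosen with earlier results of these data known. Counts of replicates differed beyond sampling noise in every pair, with a chi-square of 9.27 to 29.5 per degree of freedom.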

Additional observations from a re-analysis of the deposited data

Results flagged for a closer look

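Cyp2u1, a fatty acid hydroxylase that was too low to be tested, had injured libraries below the uninjured ones in knockouts and above them in controls, in CPM. It had 1, 2 and 2 counts in Yap/Taz KO + CCl4 and 2, 2 and 2 counts in Yap/Taz KO, a mean difference (injured minus uninjured) of -0.441 CPM. It had 2, 5 and 2 counts in ctrl + CCl4 and 0, 1 and 0 counts in ctrl, a mean difference of 0.80 CPM. In knockouts the difference is 1 count and the scaling of the libraries. The difference between the genotypes was not tested, and the libraries held 0 to 5 counts of the gene.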

How the results depend on the processing

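Of 52 gene fold changes followed, 37 kept their call under each alternative run, 15 lost it under at least 1 and 0 changed sign. The number of P450 genes called after injury stayed within 1.5 times of that reported, with 0 to 1 higher in knockouts and 0 to 2 in controls. Counts over all genes moved further: without Yap/Taz KO + CCl4 replicate 1, 516 genes fell and 660 rose in knockouts, and without the 3 libraries of low Xist 695 fell and 562 rose in controls. Without the low-count filter 2 P450 genes passed between Yap/Taz KO and ctrl, 4 between Yap/Taz KO + CCl4 and ctrl + CCl4, 4 for the difference of the injury responses and 5 for the average knockout effect. Calls over all genes rose in this setting too. In the same order 135 were lower and 75 higher, 22 and 87, 15 and 100, and 109 and 120. DESeq2 called 1 P450 gene in each of the last 3 comparisons. The fit to 6 libraries called 1 after injury, where 3 of all genes were lower and 2 higher. Leaving out single libraries gave 0 to 1 P450 calls between injured genotypes, where 0 to 1 of all genes were lower and 0 to 3 higher. It gave 0 to 1 for the average effect, where 1 to 2 were lower and 0 to 1 higher. The causes were not tested. With library totals as scaling the median of all genes moved to 0.40 (log2) in both injury comparisons, and 406 genes fell and 1814 rose in knockouts and 698 fell and 1974 rose in controls, against 900 and 1016, and 1290 and 1137. P450 genes then gave 20 lower and 1 higher in knockouts and 24 lower and 1 higher in controls. Summed levels with library totals, in CPM, moved for all members to 12886 in Yap/Taz KO and 4430.1 in ctrl + CCl4. In Yap/Taz KO they became 1163 for Cyp1a, 1139 for Cyp2a, 539 for Cyp2b, 1570.5 for Cyp2d, 1594 for Cyp2e and 925 for Cyp2j. In Yap/Taz KO + CCl4 they became 711 for Cyp2a and 408 for Cyp2j. In ctrl + CCl4 they became 557 for Cyp2a, 87.2 for Cyp2b, 1123 for Cyp2c, 797 for Cyp2d and 369 for Cyp2j, and in ctrl 368 for Cyp2b and 954 for Cyp2j. In no comparison did all 3 same-numbered pairs deviate together with r over 0.1 (r from -0.152 to 0.323), so the numbers were not used as pairs. Between Yap/Taz KO and ctrl r was 0.323 for replicate 1 and 0.244 for replicate 2. Whether same-numbered samples shared a batch was not tested. With the replicate block 25 P450 genes fell and 0 rose after injury in knockouts, 27 fell and 0 rose in controls, and 0 passed in the other comparisons. Over all genes 994 fell and 1101 rose in knockouts, and 1344 fell and 1250 rose in controls. Cyp2c55 in knockouts (edgeR adjusted p = 0.0612) and Cyp2c69 in controls (0.0727) then did not pass. At this depth 2-fold changes of genes that were not low were recovered in 25% of the cases simulated for ctrl + CCl4 over ctrl.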
